A study of Bos taurus with 8 samples.

Results

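Of the 763 bovine microRNAs (miRNAs) on an Agilent array, the 7 described here are those used to mark the epithelium of the mammary gland: bta-miR-205, bta-miR-31 and bta-miR-224 for the basal layer, and bta-miR-375, bta-miR-96, bta-miR-182 and bta-miR-183 for the luminal layer (bta stands for Bos taurus and is left out below). The rule for them used names and no measured value, though the set was drawn up with earlier results of these data known. All 7 names were found on the array, with no further arm or version of any of them. The tissue was mammary gland, taken from the udder at slaughter, of 8 heifers, young female cattle, 4 of the dairy breed Holstein-Friesian and 4 of the beef breed Limousin. All 8 were non-pregnant, free of signs of mastitis and untreated as far as the labels say, and their age is given once as 20 months and once as 2 years. Each animal is a biological replicate by its label and gave 1 one-colour array. The comparison is between the dairy breed and the beef breed, outside pregnancy.

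A miRNA is a short RNA that guides a silencing complex to messenger RNAs, mostly through pairing of its 5′ end, the seed, and lowers their translation and stability. The mammary ducts have an outer basal layer, which holds contractile myoepithelial cells and stem-like cells, and an inner luminal layer that forms the milk-secreting cells. MiR-205 is enriched in basal and stem-like mammary cells and represses ZEB1 and ZEB2, drivers of the change from epithelium to mesenchyme. MiR-31 is linked to mammary stem cell renewal, and miR-375 is high in luminal cells with estrogen receptor. MiR-183, miR-96 and miR-182 are processed from 1 primary transcript, are common in epithelia and sensory organs, and can repress FOXO1.

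The array holds several probes for each miRNA, and their sequences are shown because the values of a miRNA rest on nearly the same bases. In each of the 7 cases the longer probe was the shorter one with a single base added at the 3′ end, so that agreement between probes is no independent measurement. The probes are written 5′ to 3′ as DNA, antisense to the miRNA, and the capital marks the base that the next shorter probe lacks.
miR-205: cagactccggtggaaT
miR-31: agctatgccagcatctT
miR-224: taaacggaaccactagtgacT
miR-375: tcacgcgagccgaacG
miR-96: agcaaaaatgtgctagtgccaA
miR-182: agtgtgagttctaccattG
miR-183: cagtgaattctaccagtG

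The array annotation places these longer probes, in build UMD 3.1, at chr16:75799979-75799993 (miR-205), chr8:22534826-22534841 (miR-31), chrX:34664600-34664619 (miR-224), chr2:107667567-107667581 (miR-375), chr4:94411218-94411238 (miR-96), chr4:94406730-94406747 (miR-182) and chr4:94411442-94411458 (miR-183). It writes the positions in descending order for all but miR-31, and each annotated span is 1 base shorter than its probe. By name, all 7 matched a gene in the RefSeq table of assembly ARS-UCD2.0. There MIR182, MIR96 and MIR183 follow each other without a gene between them, MIR224 lies within the span of GABRE, a GABA receptor subunit gene, and MIR31 within that of IFNE, an interferon gene. MIR375 lies between CRYBA2 and CFAP65, and MIR205 beside CAMK1G.

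The probes of the polycistron were compared with each other because its members were detected to different degrees. Those of miR-182 and miR-183 share 8 bases, in capitals here, a stretch held by the probes of these 2 miRNAs and of no others among the 763 (0.262%). The longest stretch that the probe of miR-96 shares with either has 4 bases.
miR-96: agcaaaaatgtgctagtgccaa
miR-182: agtgtgagTTCTACCAttg
miR-183: cagtgaaTTCTACCAgtg

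A single slide and scan held the 8 arrays. In the position code of the scanner, the first index was 1 for the Holstein-Friesian samples and 2 for the Limousin samples, so breed cannot be told apart from position. The second index ran from 1 to 4 with the replicate number in both breeds. The Limousin arrays were brighter: the 75th percentile, taken over probes that were detected on each of the 8, was 943 to 1579 intensity units there and 557 to 939 in Holstein-Friesian. Values below are therefore scaled log2 signals, in which each array's signal was divided by this percentile, multiplied by its mean over arrays and given a floor of 1. Detection of a probe means that over 50% of the spots it has on that array were called well above background by the scanner software. No spot was saturated, and the number of arrays limits the precision. Levels of different probes are not compared with each other, so the order of the 7 miRNAs by abundance is not given.

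The members fell into those measured in both breeds and those at the edge of detection. MiR-205, miR-31, miR-224, miR-96 and miR-182 were each detected on 8 of 8 arrays, with 100% of the spots of their longest probe well above background. The shorter probes were at 100% as well except on the Holstein-Friesian arrays for miR-224 (20 bases; 70% to 90%) and for the shortest of the 3 miR-182 probes (17 bases; 50% and 55% on replicates 1 and 4). MiR-375 was detected on 0 of 4 Holstein-Friesian and 4 of 4 Limousin arrays, and miR-183 on 0 of 8. The map of spots well above background shows these levels of detection side by side.

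**Figure D1:**
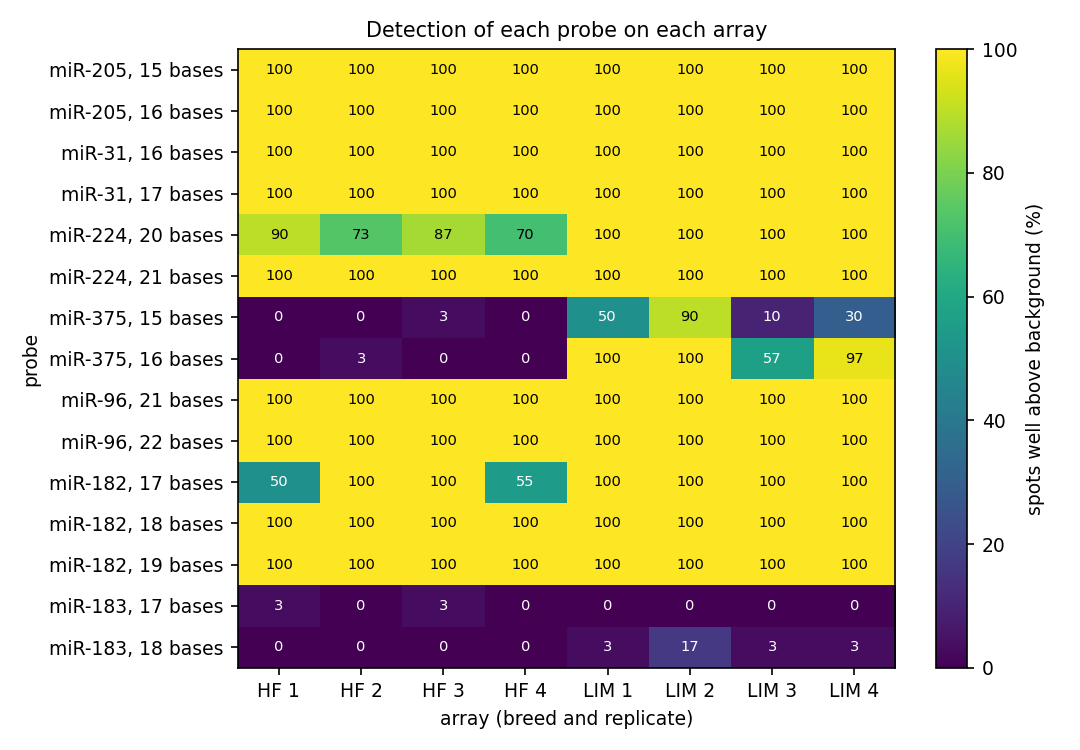
Percentage of spots well above background for each probe (rows, with probe length) on each array (columns; HF, Holstein-Friesian; LIM, Limousin; numbers are replicates). The rows of miR-205, miR-31 and miR-96 are at 100% throughout, those of miR-183 reach at most 16.7%, and those of miR-375 are at 0% to 3.33% in Holstein-Friesian and 10% to 100% in Limousin.

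Of the 3 basal miRNAs 0 passed the breed comparison. The threshold, an adjusted p under 0.05 by limma with Benjamini-Hochberg adjustment, was one that 41.9% of the 270 tested miRNAs passed. An unadjusted p under 0.05 was thus held by at least 41.9% of the 270, and by 0 of the 3 basal ones. MiR-205, the basal and stem-like marker, had scaled log2 signals of 11.81, 11.45, 11.95 and 11.54 in Holstein-Friesian replicates 1 to 4 and of 11.84, 11.72, 12.05 and 12.02 in Limousin replicates 1 to 4. The ranges overlap, with 2 of the 4 Limousin values inside the Holstein-Friesian range and 2 above it. The Limousin mean was 11.91 ± 0.15 (SD, n = 4) and the Holstein-Friesian mean 11.69 ± 0.23 (SD, n = 4), a log2 difference of 0.22 (SE 0.14; 95% confidence interval -0.096 to 0.54; limma adjusted p = 0.248). The interval allows anything from 0.936-fold to 1.45-fold in Limousin.

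MiR-31, the miRNA tied to mammary stem cell renewal, stood at 9.02, 9.36, 9.66 and 8.98 on the Holstein-Friesian arrays and at 9.34, 9.44, 9.53 and 9.61 on the Limousin arrays. The whole Limousin range lies inside that of Holstein-Friesian. Its log2 difference was 0.22 (SE 0.16; 95% confidence interval -0.13 to 0.58; limma adjusted p = 0.304), and its SD was 0.32 in Holstein-Friesian and 0.11 in Limousin.

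MiR-224, which lies within GABRE, stood at 5.72, 5.71, 5.58 and 5.63 in Holstein-Friesian and at 5.92, 5.38, 5.74 and 5.75 in Limousin. Here the Holstein-Friesian values lie inside the Limousin range, which is wide because replicates 1 and 2 are its highest and lowest values. The log2 difference was 0.037 (SE 0.13; 95% confidence interval -0.25 to 0.33; limma adjusted p = 0.843). Its sign was not stable: it became -0.40 with a normexp background correction (limma adjusted p = 0.0255), -0.37 with no background correction (limma adjusted p = 0.0336) and -0.43 once a trend with the probes' GC content and length was taken out of each array (limma adjusted p = 0.0442), each of these past the threshold in the opposite direction. The median over all 270 miRNAs was -0.38, -0.36 and -0.14 in these settings. Under both background settings miR-224 thus lay near the shift of all miRNAs, and 146 and 143 of all 270 were called lower.

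**Figure D2:**
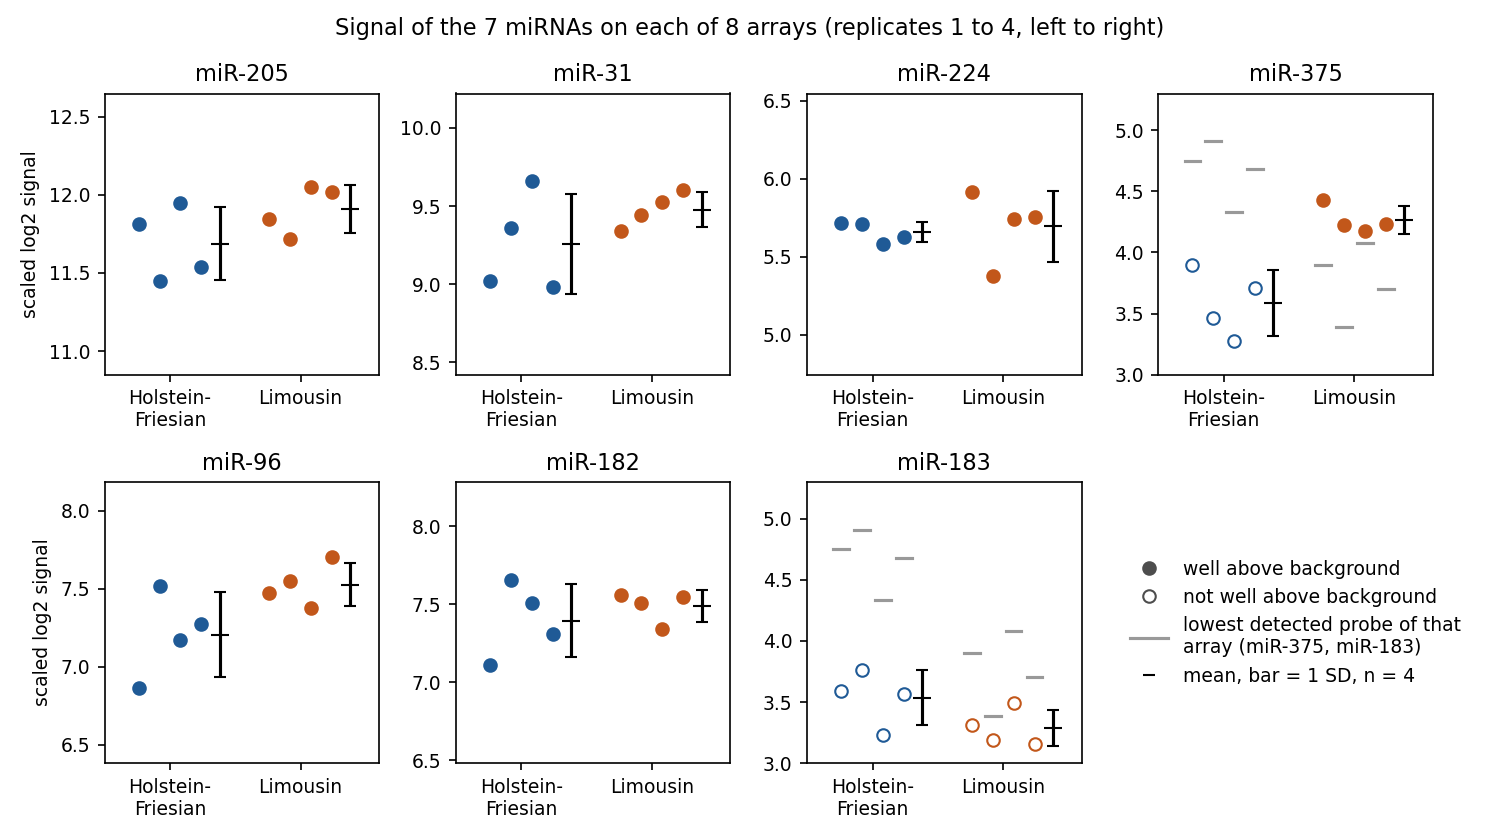
Scaled log2 signal of each of the 7 miRNAs on the 4 Holstein-Friesian (blue) and 4 Limousin (orange) arrays, from the probe with the highest mean; filled points are well above background, open points are not, black marks give the mean and 1 SD, and the grey marks for miR-375 and miR-183 give each array's lowest detected probe. The breeds overlap for 6 of the 7 miRNAs, and for miR-375 all Holstein-Friesian points are open and below their grey marks.

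Of the luminal miRNAs, miR-96 and miR-182 are the 2 polycistron members that could be measured in both breeds, and neither passed. MiR-96 stood at 6.86, 7.52, 7.17 and 7.27 in Holstein-Friesian and at 7.47, 7.55, 7.38 and 7.70 in Limousin. Only Holstein-Friesian replicate 2 reached into the Limousin range. The means were 7.21 ± 0.27 (SD, n = 4) and 7.53 ± 0.14 (SD, n = 4), with a log2 difference of 0.32 (SE 0.15; 95% confidence interval -0.013 to 0.65; limma adjusted p = 0.112). Without Holstein-Friesian replicate 2, the dimmest array and the one with the fewest miRNAs detected (243), the difference was 0.42 and passed (limma adjusted p = 0.0220). Of all 270 miRNAs 142 then passed, 56 higher and 86 lower, against 113 with that array. With the GC and length trend taken out it was -0.25 (limma adjusted p = 0.0651), with a normexp background correction 0.036 and with no background correction 0.076.

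MiR-182 stood at 7.11, 7.65, 7.51 and 7.31 in Holstein-Friesian and at 7.56, 7.51, 7.34 and 7.55 in Limousin, all 4 of the latter inside the range of the former. Its log2 difference was 0.094 (SE 0.14; 95% confidence interval -0.21 to 0.40; limma adjusted p = 0.617), and its fold lay between 0.866 and 1.32. Its sign changed without Holstein-Friesian replicate 1, to -7.9e-04, and with 4 other settings without passing. MiR-96 and miR-182, which come from 1 transcript, thus had differences of 0.32 and 0.094 on the log2 scale with overlapping intervals; the difference between them was not tested.

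The third polycistron member, miR-183, was not well above background in either breed. On its longer probe 0% of the spots were well above background on each Holstein-Friesian array, and 3.33%, 16.7%, 3.33% and 3.33% on the Limousin arrays. A second flag of the scanner software marks spots as positive and significant. That flag was set for 86.7% to 96.7% of the probe's spots on the Holstein-Friesian arrays and for 93.3% to 100% on the Limousin arrays. The scaled log2 signals of miR-183 were 3.59, 3.77, 3.23 and 3.56 in Holstein-Friesian and 3.31, 3.19, 3.49 and 3.16 in Limousin. All were below the lowest detected probe of their array. The signals before scaling ran the other way, with 7.62 to 9.16 intensity units in Holstein-Friesian and 11.02 to 15.01 in Limousin, so that no direction is given for it. It entered no test.

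The deposited value table gave miR-183 a different standing. In it miR-183 held the lowest value of the column, that of an undetected miRNA, for all 4 Holstein-Friesian samples, and -3.27, -3.38, -3.09 and -3.45 on its log2 scale for Limousin replicates 1 to 4. Behind these values, the scanner software's total signals per miRNA were 6.94, 8.46, 6.19 and 6.51, with errors of 2.16, 2.15, 2.01 and 2.06. On the longer probe the total signal was 3.08 to 3.94 times its own error in Limousin and 2.11 to 2.30 times in Holstein-Friesian. The software's call per miRNA counted miR-183 as detected on 4 of 4 Limousin and 0 of 4 Holstein-Friesian arrays, and it wrote a total signal of 0.1 for those it did not call. By that call 338 miRNAs were detected on any array. Of these, 6 were detected on all Limousin and no Holstein-Friesian arrays, and 0 the other way round.

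MiR-375, the marker of estrogen receptor-positive luminal cells, was well above background in Limousin only, so no size or direction is given for its difference between the breeds. It stood at 3.89, 3.46, 3.28 and 3.71 in Holstein-Friesian and at 4.43, 4.22, 4.18 and 4.23 in Limousin, and the 2 breeds did not overlap. The spots of its longer probe that were well above background made up 0%, 3.33%, 0% and 0% in Holstein-Friesian and 100%, 100%, 56.7% and 96.7% in Limousin. Flagged as positive and significant were 100%, 83.3%, 96.7% and 96.7% of that probe's spots in Holstein-Friesian and 100% on each Limousin array. MiR-375 entered the test only through the Limousin arrays, so that its fitted log2 difference of 0.68 (limma adjusted p = 0.0066) is no support for a difference. Since it was not well above background in Holstein-Friesian, only a bound could be set there, and the Limousin mean of 4.27 lay below the mean of 4.67 for the lowest detected signal of the Holstein-Friesian arrays, so that no fold can be given. With the floor at the lowest detected signal of each array the difference became -0.40 (limma adjusted p = 0.0387). All Holstein-Friesian values lay below that floor and were replaced by it. This value and its p thus rest on the detection limits of those arrays and are no test of miR-375. The difference was -0.48 with a normexp background correction (limma adjusted p = 0.0147) and -0.46 with no background correction (limma adjusted p = 0.0189). The medians over all 270 miRNAs were then -0.38 and -0.36. With any spot above background counted as detection, 2 Holstein-Friesian and 4 Limousin arrays detected it.

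The shorter probe of miR-375, 1 base less, was detected on 0 Holstein-Friesian arrays and on 1 Limousin array, replicate 2, where 90% of its spots were well above background. Its mean was 2.53 in Holstein-Friesian and 3.75 in Limousin. Before scaling, the longer probe read 9.76, 6.40, 9.47 and 8.44 intensity units in Holstein-Friesian and 26.5, 30.7, 17.8 and 24.3 in Limousin. The deposited value table lists miR-375 at the lowest value in all 4 Holstein-Friesian samples and at -1.39, -1.56, -1.60 and -1.68 in Limousin, a difference of 7.30 on its log2 scale against the value that undetected miRNAs are given.

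Of the 6 tested members, 1 had an adjusted p under 0.05 (limma, Benjamini-Hochberg over 270 miRNAs). That 1 was miR-375, which was not well above background in Holstein-Friesian and whose sign turned with the background setting. With the higher floor its sign turned too, but there the floor stood in for its Holstein-Friesian values. Among all 270 tested, 41.9% passed, 13.7% higher and 28.1% lower in Limousin. Only 1 of the 6 had breed ranges without overlap, beside 36.7% of all 270, and 15.9% with Limousin higher. That member was again miR-375, which entered the test only through the Limousin arrays, so no direction is read from it. Detection on all 4 Limousin and no Holstein-Friesian array was found for 9 of the 270 (3.33%), miR-375 among them. Of the 5 members detected on all 8 arrays, 0 passed. An unadjusted limma p under 0.05, held by at least 41.9% of all 270, was found for 0 of these 5, the lowest being 0.0579 for miR-96. Their 95% intervals reach at most 0.65 above and 0.25 below 0 on the log2 scale. In the tissue as a whole, fewer cells of a type and less of the miRNA per cell cannot be told apart.

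**Figure D3:**
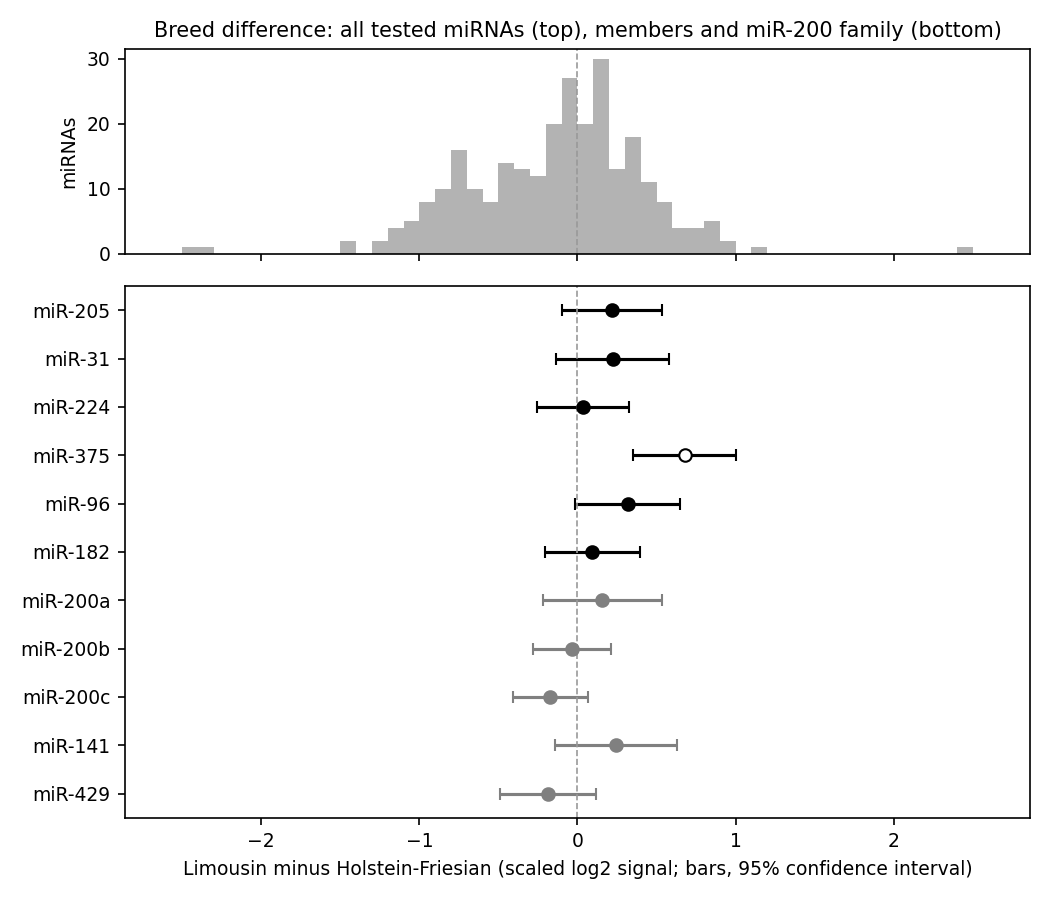
Top, number of the 270 tested miRNAs by log2 difference (Limousin minus Holstein-Friesian); bottom, the difference and its 95% confidence interval for the 6 tested members (black) and the 5 miR-200 family miRNAs (grey), with an open point for miR-375, which was not well above background in Holstein-Friesian. The intervals of all but miR-375 cross 0.

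These calls depend on how arrays of different brightness are brought together. How many members passed varied with the scaling. With no scaling all 6 passed, from 0.89 for miR-224 to 1.53 for miR-375, while the median over all 270 miRNAs was 0.78. With the 75th percentile taken over all probes, where the median over all was 0.26, again 6 passed, with 0.55 for miR-205 and for miR-31, 0.37 for miR-224, 0.65 for miR-96 and 0.42 for miR-182. Against the reported scaling, these 2 move the differences of all detected miRNAs up by 1 constant each, and the median and miR-200 family scalings likewise shift them by 1 constant, so the signs of the members under them are no separate evidence. The calls over all 270 then split into 173 higher and 2 lower with no scaling and 104 and 30 with the percentile over all probes, against 37 and 76 as reported; the split was 54 and 42 with quantile scaling, 41 and 45 with the miR-200 family and 81 and 28 in the deposited value table. Of the members, that table called 4 of 6, and the quantile scaling 2 of 6.

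**Figure D4:**
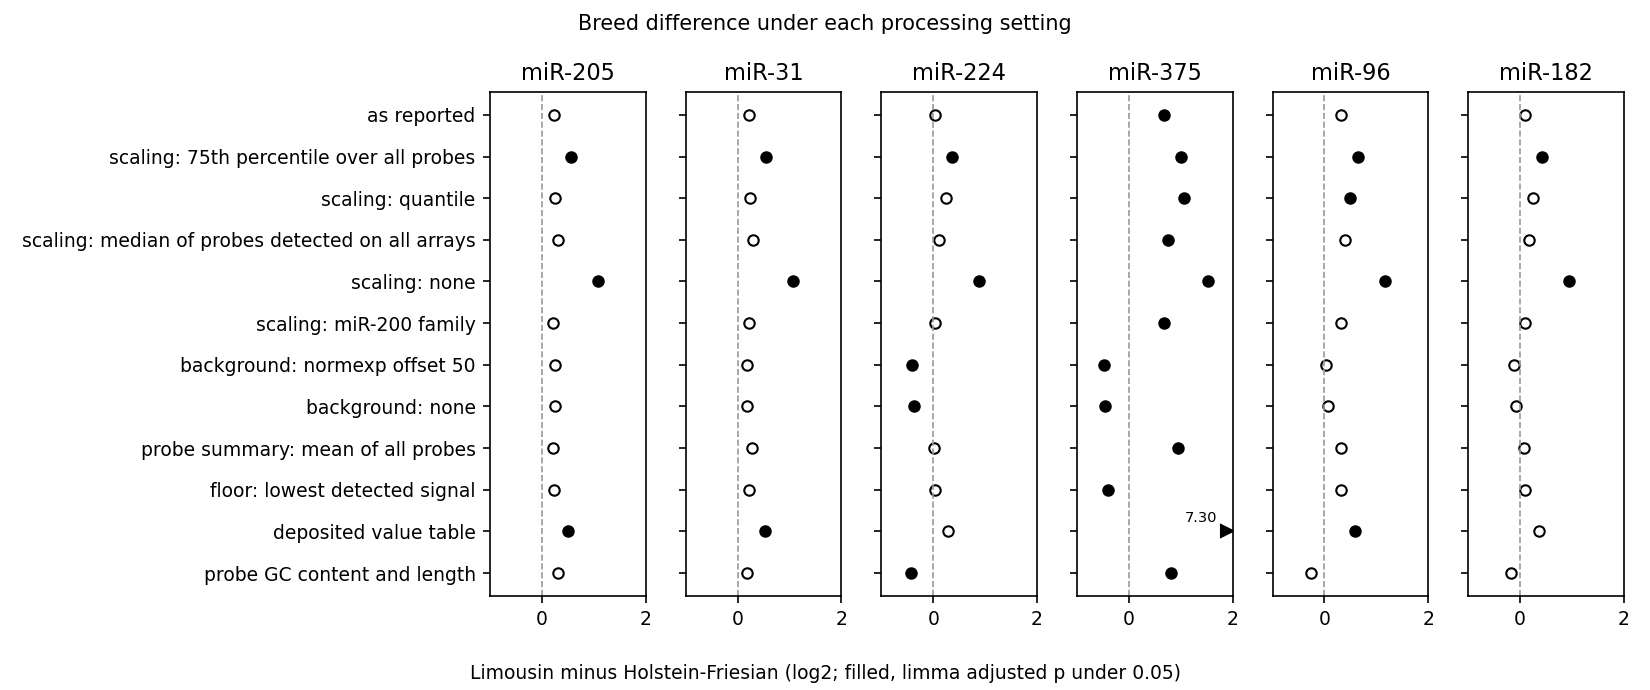
Log2 difference (Limousin minus Holstein-Friesian) of each of the 6 tested members under the reported setting and 11 others; filled points passed the limma test at an adjusted p under 0.05, and the arrow for miR-375 marks 7.30. MiR-205 and miR-31 keep to the right of 0 in each row, while miR-224, miR-375, miR-96 and miR-182 cross to the left in at least 1.

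The miR-200 family, which represses ZEB1 and ZEB2 and marks epithelium of both layers, gave a measure of the other epithelial miRNAs. All 5 (miR-200a, miR-200b, miR-200c, miR-141 and miR-429) were detected on 8 of 8 arrays, and a sixth listed miRNA, miR-203, was not found on the array by that name. Of the 5, 0 passed (limma), beside 41.9% of all 270, and 0 had an unadjusted p under 0.05, beside at least that share. The median difference was -0.035, beside -0.069 for all 270. MiR-141 had the largest difference upward, 0.24 (SE 0.17; limma adjusted p = 0.302), and miR-429 the largest downward, -0.19 (SE 0.14; limma adjusted p = 0.307). The median over the 3 basal miRNAs was 0.22.

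Scaling to the mean of these 5 miRNAs instead, so that values are relative to epithelium, shifted every miRNA by nearly 0. The 5 members detected on all arrays then differed by 0.22 (miR-205), 0.22 (miR-31), 0.036 (miR-224), 0.32 (miR-96) and 0.093 (miR-182) on the log2 scale. Of these 5, 0 passed, beside 86 of all 270, and the lowest limma adjusted p was 0.0502 for miR-96.

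For each of the 5 members detected on all arrays, the range within 1 of the breeds, 0.50 to 0.68 on the log2 scale, was wider than the difference between the breed means. The SD of miR-31 in Holstein-Friesian was 2.79 times that in Limousin, of miR-375 2.39 times, of miR-182 2.33 times, of miR-96 1.97 times and of miR-205 1.499 times. Over all 270 tested miRNAs the median SD was likewise larger in Holstein-Friesian, 0.25, than in Limousin, 0.15. MiR-224 went the other way, with an SD of 0.065 in Holstein-Friesian, smaller than that of all but 1.85% of the tested miRNAs, and 0.23 in Limousin. For comparison, the spots of a single probe on 1 array, which measure the technical error of a spot within an array, had a median SD of 0.089 for miR-205, 0.064 for miR-31, 0.13 for miR-96, 0.12 for miR-182, 0.15 for miR-224 and 0.43 for the weak miR-375, on the log2 scale. Each array's value is a mean over up to 20 (miR-182) or 30 spots, so its within-array error is smaller than these spot SDs.

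Within Holstein-Friesian the deviations did not follow the 2 layers. Replicate 2 was the highest for miR-96, 0.31 above its breed mean, and for miR-182, 0.26 above, and the lowest for miR-205, 0.24 below. In that animal miR-200a, at 11.27, and miR-141, at 12.12, were also the highest of the 8 arrays. Replicate 3 was the highest for miR-31, 0.41 above the breed mean, and for miR-205, 0.26 above. Replicate 1 was the lowest for miR-96 and miR-182, at 0.34 and 0.28 below, as it was for miR-200a and miR-141, at 10.43 and 11.23. Basal miR-31 had the sign of luminal miR-182 on all 4 Holstein-Friesian arrays. Luminal miR-375, there not well above background, was above its breed mean in replicate 1 and below it in replicate 2, opposite to miR-96 and miR-182. The deviations in Limousin were smaller, within 0.19 for all but miR-224.

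**Figure D5:**
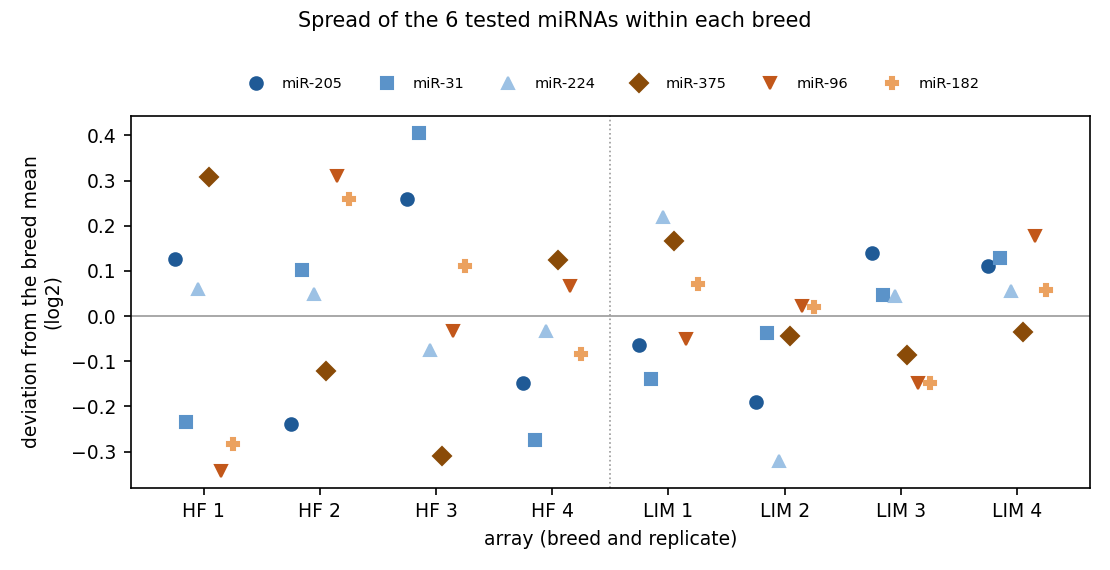
Deviation of each tested member from the mean of its breed (log2) on each array, with the basal miRNAs in blue and the luminal ones in brown and orange. MiR-96 and miR-182 lie farthest from 0 on Holstein-Friesian replicates 1 and 2, where miR-205 takes the opposite sign.

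The likeness of profiles was measured as the root mean square difference over the 8 arrays between scaled log2 values, each centred on its own mean. MiR-96 and miR-182 were at 0.15 from each other, and miR-182 took rank 27 among the tested miRNAs in nearness to miR-96. Nearest to miR-96 were let-7g (0.077), miR-377 (0.087) and miR-411c-5p (0.092). Nearest to miR-182 were miR-19b (0.059), miR-19a (0.086) and miR-22-5p (0.088). MiR-205 had miR-23b-3p (0.10), miR-26a (0.12) and miR-497 (0.14) nearest, miR-31 had miR-411a, miR-19b and miR-376e (0.13 to 0.14), and miR-224 had miR-487b, miR-425-5p and miR-2288 (0.11 to 0.12). The basal members miR-205 and miR-31 were at 0.20 from each other and miR-31 and miR-182, of different layers, at 0.19. None of these 5 members had another of the 7 among its 3 nearest.

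Markers of other cell types were read beside the epithelial ones. Of the stromal list 3 of 4 miRNAs (miR-199a-3p, miR-199a-5p and miR-199b) were higher in Limousin (limma), beside 13.7% of all 270, and miR-214 was at 0.0048 on the log2 scale. The list had a summed scaled log2 signal of 12.29 to 12.46 in Holstein-Friesian and 12.69 to 13.00 in Limousin. In the leukocyte list 2 of 4 tested passed, miR-142-5p and miR-155, both higher, beside the same 13.7%, while miR-150 was at 0.022 and miR-223 at -0.15 (limma adjusted p = 0.606). The list had sums of 10.004 to 10.59 and 10.53 to 10.89, and miR-142-3p was detected on no array. Of the adipocyte list, 2 of 2 tested, miR-378b and miR-378c, were lower in Limousin, beside 28.1% of all 270, with sums of 7.06 to 7.55 and 6.38 to 6.68. The list also held miR-378, which was not found on the array by that name. MiR-378c was detected on 3 Holstein-Friesian and 4 Limousin arrays. The contractile list (miR-143 and miR-145) and the endothelial list had 0 of 2 past the threshold each, beside 41.9% of all 270. In both, 1 of 2 had an unadjusted limma p under 0.05, beside at least that share. In the erythroid list miR-144 and miR-486 were detected on no array, and miR-451 did not pass. Of the skeletal muscle list miR-206, miR-208a, miR-208b and miR-499 were detected on no array, miR-133a on 0 Holstein-Friesian and 1 Limousin array, and miR-133b on 1 and 2. Its only tested miRNA, miR-1, was detected on 2 Holstein-Friesian and 4 Limousin arrays and had a log2 difference of 0.26 (limma adjusted p = 0.487). The summed signal of the 3 basal miRNAs ran from 11.77 to 12.23 in Holstein-Friesian and from 12.00 to 12.29 in Limousin, and that of the 4 luminal ones from 8.14 to 8.68 and from 8.48 to 8.72. All such sums add signals before the log, so the miRNA with the brightest probe weighs most. The basal sum thus mostly follows miR-205, with means of 11.69 and 11.91, and the luminal sum includes miR-183, detected on no array. The part of the other cell types in the values of the members was not tested.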

How the data were processed

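RNA carrying a Cyanine 3 label was hybridised, 1 array per animal. Per the file headers, Agilent Feature Extraction 10.10.1.1 wrote each spot's intensity with a fitted background subtracted, not normalized between arrays. The deposited value table holds log2 values. Its making is not given in the sources used here; set against the scanner files it is the total signal of a miRNA on a log2 scale minus a constant per array, with each column's median at its lowest value (-9.79 to -8.53) and miRNAs not centred.

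Control and outlier spots were left out, spots of a probe were averaged, and the brightest probe on average stood for its miRNA. The test (limma 3.58.1, R 4.3.3, lmFit and eBayes, breed as the only term, Benjamini-Hochberg adjustment) took in 270 miRNAs, those detected on all 4 arrays of a breed. Differences are Limousin minus Holstein-Friesian. The steps were tested on simulated data. The members, lists and rules were chosen with earlier results of these data known. Named are the 7 members, the miR-200 family, miRNAs of the marker lists and the 3 nearest in profile to each member detected on all arrays; the list miRNAs named for other cell types were picked after their values were seen. Alternatives covered scaling, background, floor, filter, probe summary, variance model, value table, probe GC content and length, the replicate block and leaving out each array.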

Additional observations from a re-analysis of the deposited data

How the results depend on the processing

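All alternatives but 1 were set out at the start; the scanner software's detection call was chosen after seeing the data. MiR-205 and miR-31 stayed above 0 in each of 24 alternatives, 4 of which shift all miRNAs by 1 constant. The filters, the floor, the variance model and the replicate block left both differences exactly as reported. Adding the block to the GC and length correction likewise repeated its values. The signs under such settings are no separate evidence. With no scaling the log2 differences were 1.07 for miR-205, 1.08 for miR-31, 0.89 for miR-224, 1.17 for miR-96 and 0.95 for miR-182, with 6 members, 5 of the miR-200 family and 175 of all miRNAs past the threshold, against 1, 0 and 113 as reported. With the 75th percentile over all probes they were 0.55, 0.55, 0.37, 0.65 and 0.42, with 6 members and 2 of the family past it, beside 134 of all miRNAs. Quantile scaling gave 0.49 for miR-96, 2 members and 1 of the family (miR-200c, lower), beside 96 of all. The value table gave 0.49 for miR-205, 0.53 for miR-31, 0.59 for miR-96 and 4 members, beside 109 of all. The median difference over all miRNAs was 0.26 with that percentile, 0.089 with quantile scaling and 0.25 in the value table.

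Normexp gave -0.40 for miR-224, -0.48 for miR-375 and -0.11 for miR-182, and no background correction -0.37, -0.46 and -0.087, while miR-96 fell to 0.036 and 0.076. In each setting 2 members passed, both lower. Of all miRNAs 172 passed with normexp (26 higher, 146 lower) and 170 with no background correction (27 higher, 143 lower). The medians over all 270 were -0.38 and -0.36. The floor at the lowest detected signal gave -0.40 for miR-375, where it stood in for all Holstein-Friesian values. The filter for detection on all 8 arrays removed miR-375, leaving 0 members past the threshold, beside 96 of the 232 miRNAs kept. Correcting for probe GC content and length gave -0.43 for miR-224, -0.25 for miR-96 and -0.17 for miR-182. In that setting 2 members passed the threshold (miR-375 higher, miR-224 lower), beside 78 of all, 26 higher and 52 lower. With the replicate block added the 3 values were the same, 2 members passed and 61 of all. The cause of these changes was not tested.

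Leaving out 1 array gave 0.14 to 0.31 for miR-205, 0.13 to 0.36 for miR-31, -0.036 to 0.14 for miR-224 (lowest without Limousin replicate 1), 0.58 to 0.78 for miR-375, 0.20 to 0.42 for miR-96 (highest without Holstein-Friesian replicate 2) and -7.9e-04 to 0.18 for miR-182 (lowest without Holstein-Friesian replicate 1). The members past the threshold were then 1 to 2 and of the family 0 to 2, both at the higher count without Holstein-Friesian replicate 2. Of all miRNAs 71 to 142 passed (142 without that same array, 71 without Limousin replicate 1, 73 without Holstein-Friesian replicate 4).

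Same-numbered samples shared the second position index on the slide. Their deviations had correlations over miRNAs of -0.45 to 0.32, and so few pairs cannot tell whether the number pairs the samples. With the replicate number as a block the 5 members detected on all arrays were again not past the threshold, and 84 of all miRNAs were. Asking for all spots above background, miR-375 was detected on 2 arrays instead of 4. Asking for any spot, miR-375 was detected on 6 arrays, 2 of them Holstein-Friesian, and miR-183 on 6 instead of 0, and by the scanner software's call on 4. Signal over background limits what can be said of these 2 miRNAs.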
